A study of Mus musculus with 9 samples.

Results

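Of 36843 regions of open chromatin in mouse peritoneal macrophages, 1312 (3.56%) were called in the tissue-converted and in the monocyte-derived peak list and in no peak of the tissue-resident list. They were found by merging all peaks of the 3 deposited lists that overlapped by at least 1 bp and keeping merged regions that held a converted and a monocyte-derived peak and no resident peak. They are called converted-monocyte regions here. They were chosen by the presence of deposited peaks in these lists, so their number, p-values and widths are descriptions and carry no test. They were 10.1% of all 12953 converted regions and 4.16% of all 31514 monocyte-derived regions.

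The assay was ATAC-seq on sorted macrophages: a hyperactive transposase inserts sequencing adapters where DNA is accessible. Each group had 3 samples and 1 merged peak list. For the tissue-converted group, mice received thioglycollate (2 ml), which inflames the peritoneum and recruits monocytes, and a tamoxifen diet for 8 weeks. For the monocyte-derived group, thioglycollate (2 ml) was followed by harvest on day 4. For tissue-resident macrophages the labels name no treatment of their own. Mice of all 3 groups received complexes of IL-4 (5 µg) with antibody to IL-4 (25 µg) every other day, starting 4 days before harvest. All were Cx3cr1CreERT2-IRES-EYFP/+ Rosa26-stopfl-tdTomato/+, so that a tamoxifen-inducible Cre driven from Cx3cr1 can switch on a red reporter in cells that express Cx3cr1 at that time. The lists that call these 1312 regions are thus those of both groups given thioglycollate, and cell origin and treatment cannot be told apart.

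Macrophages of the peritoneum have a resident population that is seeded early in life and a population that arises from blood monocytes, above all in inflammation. Recruited cells can over time take on features of residents, and IL-4 drives both towards alternative activation. Enhancers and promoters that are in use are depleted of nucleosomes, and in macrophages many of them are held open by PU.1 together with AP-1, C/EBP and other factors.

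The files hold no read counts, so the depth behind a call is unknown, a missing call can mean closed chromatin or a weak signal, and no value has a spread between replicates. The p-values are the authors' own per peak, with a floor of 1e-12. Each is given here also as a percentile of its own list, counted from the smallest p, with ties at their mean rank. The lists held 15552 converted, 33694 monocyte-derived and 24348 resident peaks. Peaks with a p above 1e-05, the value in the names of the lists, numbered 0, 1267 and 5476 in the same order, so the list from which these regions are missing reached to weaker peaks than the others. Regions lay within 10 kb of 2 of 7 defining macrophage genes in the converted list and of 7 of 7 in both the monocyte-derived and the resident list. Of defining genes of other cells, 1 of 3 dendritic cell genes had a region in the converted list, 3 in the monocyte-derived and 2 in the resident list. In each of the 3 lists, 1 of 4 B cell genes, 1 of 4 T and NK cell genes and 1 of 3 eosinophil genes had a region. Of 3 neutrophil genes, 0 had one in the converted list and 1 in each of the others, and 0 of 3 mesothelial and 0 of 2 mast cell genes had one in any list. The part of such cells in the results was not tested.

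The promoters below are those of the 6 best-ranked converted-monocyte regions whose RefSeq promoter window, 250 bases before to 50 after an annotated start on GRCm38.p6, met no region of the resident list. They are shown because they are the best-ranked cases of a gene start called in the converted and monocyte-derived lists and not in the resident list. A resident peak still lay 50 bp from the region at Trmt10a, 50 bp from that at Vapa and 325 bp from that at Ifi207. At Abcf1, C3ar1 and Srgap3 the nearest was 2.3, 16.65 and 98.6 kb away. Capitals mark the bases covered by the converted peak, and each sequence runs 5′ to 3′ on the strand of its gene. The windows are chr1:173741760-173742059 (minus strand) for Ifi207, chr17:35969701-35970000 (minus) for Abcf1, chr3:138143198-138143497 (plus) for Trmt10a, chr6:122856108-122856407 (minus) for C3ar1, chr6:112947217-112947516 (minus) for Srgap3 and chr17:65613506-65613805 (minus) for Vapa.
Ifi207: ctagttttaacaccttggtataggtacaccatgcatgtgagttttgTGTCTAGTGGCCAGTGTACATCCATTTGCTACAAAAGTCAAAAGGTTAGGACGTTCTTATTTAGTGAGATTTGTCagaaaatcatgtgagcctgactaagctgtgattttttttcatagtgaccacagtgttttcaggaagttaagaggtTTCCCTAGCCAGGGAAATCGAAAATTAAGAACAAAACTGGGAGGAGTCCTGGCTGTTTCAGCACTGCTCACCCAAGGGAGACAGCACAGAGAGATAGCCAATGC
Abcf1: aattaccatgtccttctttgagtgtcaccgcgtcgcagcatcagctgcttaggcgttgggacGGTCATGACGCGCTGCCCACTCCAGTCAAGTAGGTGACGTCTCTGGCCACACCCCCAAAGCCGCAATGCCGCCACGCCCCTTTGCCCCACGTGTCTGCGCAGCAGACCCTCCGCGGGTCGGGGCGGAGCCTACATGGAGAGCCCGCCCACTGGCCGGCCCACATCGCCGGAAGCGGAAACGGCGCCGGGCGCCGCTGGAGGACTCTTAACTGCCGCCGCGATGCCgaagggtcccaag
Trmt10a: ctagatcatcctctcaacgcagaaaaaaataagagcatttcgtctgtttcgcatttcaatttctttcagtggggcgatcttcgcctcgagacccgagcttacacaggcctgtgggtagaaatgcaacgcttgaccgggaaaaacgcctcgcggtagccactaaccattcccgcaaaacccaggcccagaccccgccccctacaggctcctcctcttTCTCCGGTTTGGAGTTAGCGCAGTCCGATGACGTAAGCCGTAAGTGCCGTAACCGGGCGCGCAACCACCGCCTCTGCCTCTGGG
C3ar1: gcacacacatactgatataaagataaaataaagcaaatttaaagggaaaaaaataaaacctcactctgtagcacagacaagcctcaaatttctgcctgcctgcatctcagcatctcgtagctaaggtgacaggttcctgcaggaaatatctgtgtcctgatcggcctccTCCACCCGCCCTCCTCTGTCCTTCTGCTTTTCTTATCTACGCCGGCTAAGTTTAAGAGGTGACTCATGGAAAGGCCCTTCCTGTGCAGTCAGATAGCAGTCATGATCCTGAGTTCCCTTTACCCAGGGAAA
Srgap3: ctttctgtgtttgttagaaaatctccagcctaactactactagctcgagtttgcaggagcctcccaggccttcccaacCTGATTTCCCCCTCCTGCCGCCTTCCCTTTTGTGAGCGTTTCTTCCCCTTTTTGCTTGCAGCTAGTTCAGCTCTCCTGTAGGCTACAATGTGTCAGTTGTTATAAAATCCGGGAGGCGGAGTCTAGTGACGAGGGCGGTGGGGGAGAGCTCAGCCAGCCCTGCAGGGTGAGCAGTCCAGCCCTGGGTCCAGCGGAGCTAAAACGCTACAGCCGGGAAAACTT
Vapa: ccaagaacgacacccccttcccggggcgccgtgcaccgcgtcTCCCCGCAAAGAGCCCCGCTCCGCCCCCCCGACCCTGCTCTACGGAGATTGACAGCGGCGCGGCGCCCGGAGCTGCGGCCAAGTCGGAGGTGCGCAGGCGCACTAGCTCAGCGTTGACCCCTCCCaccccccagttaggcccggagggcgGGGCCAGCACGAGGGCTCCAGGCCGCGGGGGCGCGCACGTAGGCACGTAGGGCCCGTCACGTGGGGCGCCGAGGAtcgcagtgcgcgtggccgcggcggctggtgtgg
The 6 windows differed in composition. GC content was 42.3% at Ifi207, 46.0% at C3ar1 and 54.7% at Srgap3, against 56.0% at Trmt10a, 66.3% at Abcf1 and 75.3% at Vapa. The converted peak covered 84 of the 300 bases at Trmt10a and 225 at Abcf1, the lowest and highest of the 6. The capitals of C3ar1 hold the AP-1 letters TGANTCA, as TGACTCA, and its window also holds the GATA letters AGATAA. The Ifi207 window holds the letters searched for interferon regulatory factors and for RUNX, and a CCAAT box, each on 1 strand or the other.

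Of the 1312 regions, 3 had a p at the floor of 1e-12 in both lists. The first was a 350 bp region across an end of Ifi207, an interferon-inducible gene of the p200 family, on chromosome 1 (173741664 to 173742013). It held 1 monocyte-derived peak as wide as itself and 2 converted peaks, the wider of 150 bp, and the nearest resident peak was 325 bp away. The second was a 325 bp region across an end of Abcf1, which encodes an ATP-binding protein that acts in translation, on chromosome 17 (35969664 to 35969988), with the nearest resident peak at 2.3 kb. The third was a 250 bp region inside Meis1, a homeobox transcription factor gene, on chromosome 11 (18924964 to 18925213), 44.5 kb from the nearer gene end and 32.0 kb from a resident peak.

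A further 3 regions had a converted p of 1.03e-10 and a monocyte-derived p at the floor. One of 375 bp lay outside genes, 5.2 kb from an end of Vamp4, a vesicle fusion gene (chromosome 1, 162564939 to 162565313). One of 300 bp lay across the neighbouring ends of Mttp, whose product loads lipid onto lipoproteins, and Trmt10a, a tRNA methyltransferase gene (chromosome 3, 138143289 to 138143588), with a resident peak only 50 bp away. One of 250 bp lay inside Plekha5 (chromosome 6, 140593864 to 140594113), 29.1 kb from a resident peak.

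The other 9 of the 15 best-ranked regions were weaker in 1 of the lists. At C3ar1, the gene of the complement C3a receptor, a 250 bp region across the gene end (chromosome 6, 122855989 to 122856238) had a converted p of 2.24e-08 and a monocyte-derived p at the floor, with the nearest resident peak 16.7 kb away. Regions with the same values lay 1.5 kb from Pla1a, a phospholipase gene, inside Clip2, and within 1 kb of an end of Ahsa1, the gene of an HSP90 co-chaperone, where a resident peak stood 100 bp away. At Srgap3 the order was turned: the converted p was at the floor and the monocyte-derived p was 2.00e-07 (chromosome 6, 112947189 to 112947438). The last 4, all with a converted p of 1.92e-07 and a monocyte-derived p at the floor, lay 41.9 kb from Hhex, a homeobox gene of blood cell progenitors, inside Evl, inside Atg10, an autophagy gene, and 16.9 kb from Cxcl5, a chemokine gene. Of the 15, 6 lay within 1 kb of a gene end, 5 farther inside genes and 4 outside genes, and 3 had a resident peak within 1 kb.

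Most converted-monocyte regions were weak in the converted list and average in the monocyte-derived one. Their median percentile was 72.1 in the converted list (quartiles 39.0 and 84.8) and 51.6 in the monocyte-derived list (31.5 and 74.0). The converted p was at the floor in 8 regions and the monocyte-derived p in 101. In both lists at once, 203 regions (15.5%) ranked in the stronger 50%. The monocyte-derived p of 33 regions lay above 1e-05.

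**Figure D1:**
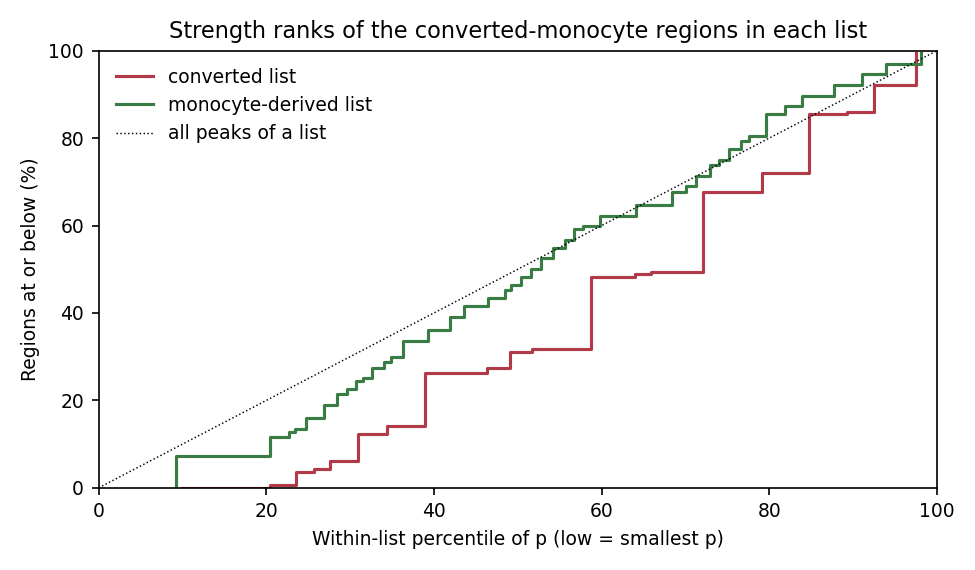
Share of the 1312 converted-monocyte regions (vertical axis, %) whose strongest peak lies at or below a within-list percentile of p (horizontal axis), for the converted and the monocyte-derived list; the dotted line is what all peaks of a list give. The converted curve runs below the dotted line over most of its length, with a median at 72.1, and the monocyte-derived curve stays closer to it, with a median at 51.6.

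Within a region, the converted peak was as a rule the narrower one and sat inside the monocyte-derived peak. In the 1152 regions with 1 peak of each list, the median width was 100 bp for converted and 175 bp for monocyte-derived peaks. The converted peak lay wholly inside the monocyte-derived peak in 924 of them (80.2%). The monocyte-derived peak was wider in 968, equal in 119 and narrower in 65. Regions of all 3 lists had the same arrangement, with medians of 175 bp and 250 bp and the converted peak inside the monocyte-derived one in 84.3% of 7975. Merged converted-monocyte regions were 75 to 600 bp wide with a median of 175 bp, against 275 bp for regions of all 3 lists, 175 bp for regions of the monocyte-derived and resident lists and 150 bp for those of the converted and resident lists.

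Position in the genome was not used by the rule. Converted-monocyte regions were within 1 kb of the start or end of a protein-coding gene, called a gene end here, in 510 of 1312 cases (38.9%, 95% Wilson interval 36.3 to 41.5%). This was 15.7 percentage points more than in the 715 regions shared by the converted and resident lists (95% Newcombe interval 11.5 to 19.6) and 14.5 points more than in monocyte-derived-only regions (11.8 to 17.3). It was 19.4 points less than in regions of all 3 lists (difference -19.4, interval -22.2 to -16.6). Regions shared by the monocyte-derived and resident lists were the nearest in position, at 42.1% (difference -3.20, interval -6.12 to -0.219). Inside gene bodies lay 920 converted-monocyte regions (70.1%, 67.6 to 72.5%), against 69.2% of monocyte-derived and resident regions, a difference of 0.941 points whose interval, -1.87 to 3.66, includes 0. Away from gene ends, 503 regions lay inside genes and 299 outside. The median distance to a gene end was 3.88 kb, and 79 regions (6.02%) lay more than 100 kb away. These intervals cover counting error over regions, which are not replicates of a group. The share near gene ends depended on the settings. It was 30.2% with peaks within 200 bp merged and 28.1% without a resident peak within 1 kb. With p at most 1e-05 it was 46.1%, and at equal list lengths 46.9%. The other classes were not recounted under these settings, so the differences hold for the lists as deposited.

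**Figure D2:**
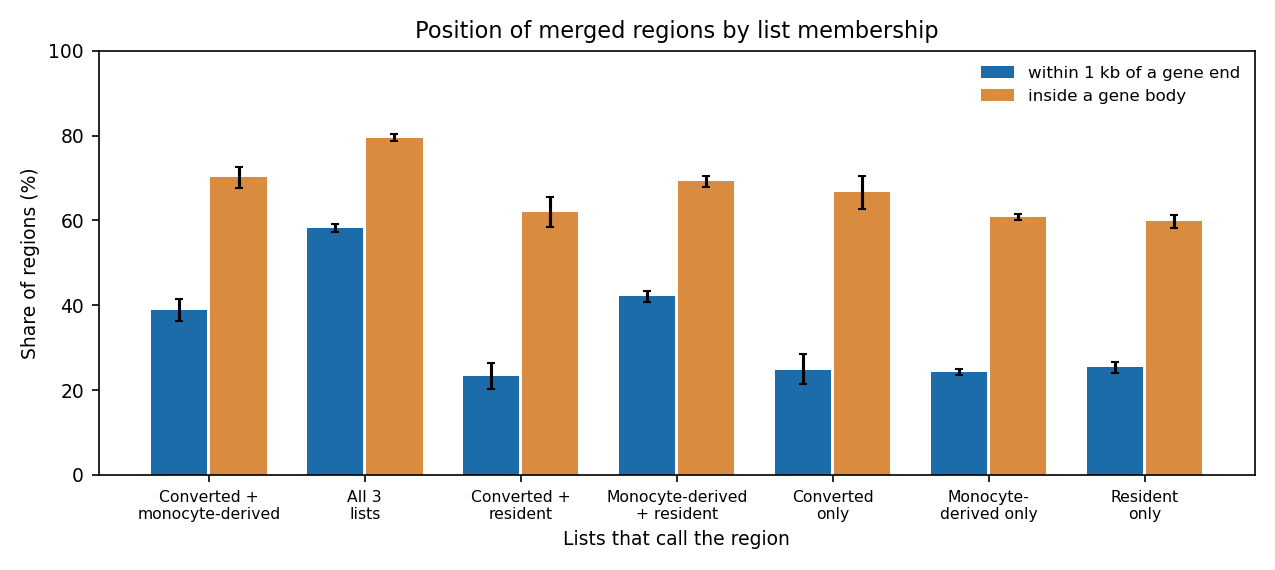
Share of regions (%, with 95% Wilson intervals as bars) within 1 kb of a protein-coding gene end and inside a gene body, for each combination of lists that calls a region. Converted-monocyte regions, at 38.9% near gene ends, stand between regions of all 3 lists (58.3%) and the classes of a single list (24.4 to 25.3%).

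Gene starts alone placed the class likewise, below regions of all 3 lists and above those of the monocyte-derived list alone. On the chromosomes with RefSeq promoter windows, 288 of 1267 converted-monocyte regions (22.7%, 20.5 to 25.1%) touched a window, against 47.5% of regions of all 3 lists, 27.1% of monocyte-derived and resident regions, 15.1% of converted and resident regions and 12.4% of monocyte-derived-only regions. Relative to the start it touched, the median offset of a region's centre was -44.25 bp, where negative is upstream, and 220 of the 288 centres were upstream. The window reaches 250 bases before the start and 50 after it, so touching it favours upstream centres. Offsets were not counted for other classes, so nothing particular to this class can be read from them. The 288 windows that met a converted-monocyte and no resident region belonged to 272 genes. Their median GC content was 60.7%, against 63.7% at promoters of all 3 lists and 53.0% over all 32619 windows. A GC content of at least 55% with at least 0.65 of the expected CpG sites was met by 58.3% of them (52.6 to 63.9%), against 73.4% of promoters of all 3 lists, a difference of -15.1 points (-21.0 to -9.45). The share was 55.3% at promoters of monocyte-derived-only regions and 28.3% over all windows.

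Motif letters were searched in these windows on both strands, 26 motifs in all, and a match is a description of letters. Against promoters of all 3 lists, 6 motifs had a difference whose 95% interval excludes 0. The CCAAT box bound by NF-Y was in 35.8% of converted-monocyte windows and 46.7% of windows of all 3 lists (difference -10.9, -16.4 to -5.10), and in 37.6% of all windows. The ETS letters CCGGAAGT were in 5.90% and 9.73% (difference -3.83, -6.15 to -0.402), and in 3.91% of all windows. AP-1 letters (TGANTCA) were in 7.99% and 3.83% (difference 4.16, 1.5 to 7.90), and in 7.85% of all windows. C/EBP letters (TTGCNNAA) differed by 5.21 points (1.86 to 9.54) and GATA letters (AGATAA) by 2.61 points (0.293 to 6.05), both higher in converted-monocyte windows than in windows of all 3 lists. C/EBP letters were in 12.2% of converted-monocyte windows and 10.9% of all windows, while GATA letters were less frequent in converted-monocyte windows, at 6.25% (3.99 to 9.66%), than in all windows, at 11.2%. The difference from windows of all 3 lists was -1.46 points (-1.80 to -0.118) for EGR letters (GCGTGGGCG). PU.1 letters (GAGGAAGT) were in 4.86% of converted-monocyte windows (2.92 to 7.99%), 3.33% of windows of all 3 lists and 3.22% of all windows. GC content moved with these shares, and its part in them was not tested. Against promoters of monocyte-derived-only regions, AP-1, C/EBP and GATA letters had differences whose intervals include 0. These were 0.523 (-2.42 to 4.41), 2.66 (-0.949 to 7.14) and -0.556 points (-3.17 to 3.03). In this comparison 5 motifs had an interval that excludes 0: ETS, CCAAT, RUNX, NRF1 and CTCF. The difference was -5.46 points (-8.64 to -1.38) for RUNX, -2.12 (-3.30 to -0.0139) for NRF1 and 2.25 (0.211 to 5.36) for CTCF. ETS letters were in 5.90% of converted-monocyte and 11.8% of monocyte-derived-only windows (difference -5.92 points, -8.65 to -2.27). The CCAAT box was in 35.8% and 29.0% (difference 6.75 points, 0.989 to 12.8).

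Some of the converted-monocyte regions were neighbours of resident peaks. The median gap to the nearest resident peak was 7.36 kb, against 11.0 kb for monocyte-derived-only and 8.96 kb for converted-only regions. A resident peak lay within 200 bp of 291 regions (22.2%) and within 1 kb of 470 (35.8%, 33.3 to 38.5%), against 24.0% of monocyte-derived-only and 34.6% of converted-only regions (30.8 to 38.6%), whose interval includes the share of converted-monocyte regions. Within 200 bp the share of converted-only regions was 24.9% (21.5 to 28.6%). Near gene ends 273 of 510 regions (53.5%, 49.2 to 57.8%) had a resident peak within 1 kb, and farther away 197 of 802 (24.6%, 21.7 to 27.7%). At the edge of the rule, 16 regions touched a resident peak end to end with a gap of 0 bp, among them regions at Bzw1, Mcu, Slc16a7 and Vrk2. Just outside it, 23 regions of all 3 lists overlapped a resident peak by 25 bp, among them regions at Vezf1, Lig3, Elmo1 and Nr1d2.

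**Figure D3:**
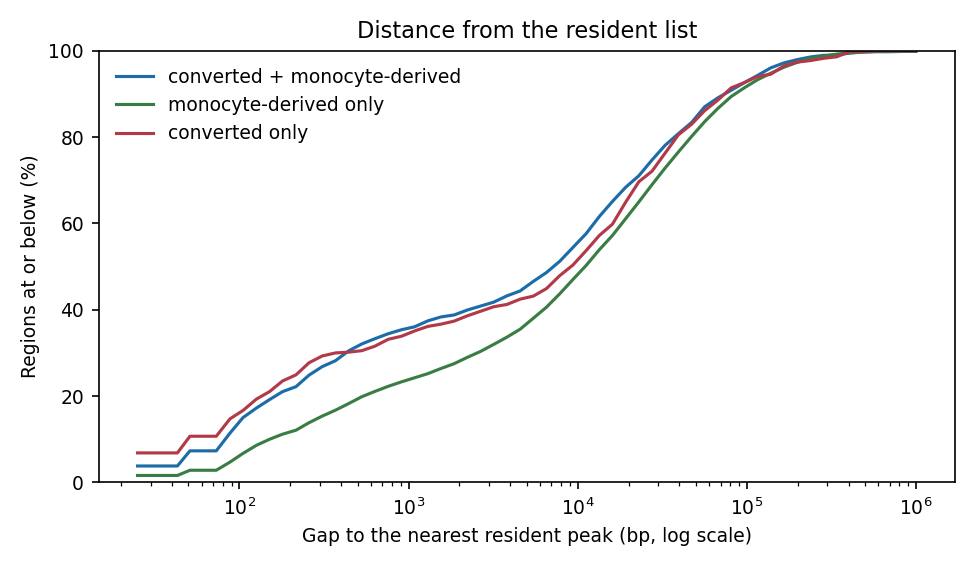
Share of regions (%) with a resident peak at or below a given gap (bp, logarithmic axis), for converted-monocyte, monocyte-derived-only and converted-only regions. At 1 kb the converted-monocyte curve stands at 35.8%, the monocyte-derived-only curve at 24.0% and the converted-only curve at 34.6%.

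The regions can also be read as the share of monocyte-derived openings missing from the resident list that were called in converted cells. This share was 8.27% (1312 of 15869 regions, 7.85 to 8.71%) in the lists as deposited, and it depended on how far each list reached. It was 17.2% with p at most 1e-05 in every list, 15.5% with p at most 1e-10 and 27.0% at equal list lengths. Near gene ends it was 12.6% (11.6 to 13.6%), inside genes but away from their ends 7.57% (6.96 to 8.23%), and outside genes 5.79% (5.18 to 6.46%). This restates the contrast with monocyte-derived-only regions above. The order was the same for monocyte-derived regions with a resident peak, so it is not particular to this class. Near gene ends 6038 of those were in the converted list and 2225 were not. Farther inside genes the counts were 2607 and 1749, and outside genes 1711 and 1315. The p-values also bear on which peaks were listed, so a split by them is a description and carries no test. The share was larger among strong monocyte-derived peaks. In the 20% of the list with the smallest p it was 26.9% (104 of 387 regions, 22.7 to 31.5%), and in the weakest 20% it was 4.56% (184 of 4031, 3.96 to 5.25%). The difference by position had the same sign in every bin of strength, with intervals that cover counting over regions only. Near minus far was 23.7 points in the strongest 20% (11.4 to 36.1), 6.76 points in the next (4.41 to 9.32), then 5.81 and 7.72 points, and 2.56 points in the weakest 20% (1.02 to 4.32). From the other side, 69.7% of the 1882 converted regions missing from the resident list were called in monocyte-derived cells (67.6 to 71.7%). This was a smaller share than among converted regions with a resident peak. Of those, 10356 were in the monocyte-derived list and 715 were not.

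**Figure D4:**
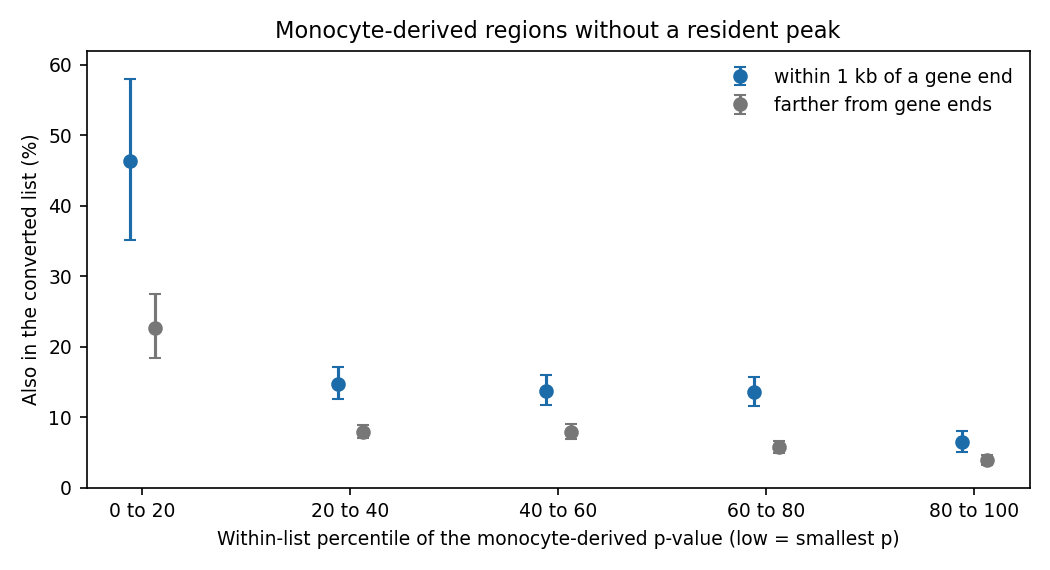
Share of monocyte-derived regions without a resident peak that were also called in converted cells (%, with 95% Wilson intervals), by bins of 20% of the monocyte-derived list from smallest to largest p, within 1 kb of a gene end and farther away. Near gene ends the share is 46.4% in the strongest part and 6.45% in the weakest, and farther away 22.6% and 3.90%.

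By nearest gene end the 1312 regions fell to 1169 genes, 5.41% of 21627 protein-coding genes. Of these, 1040 had a single region, 115 had 2 and 14 had 3, and none had more. The 14 genes with 3 were Arid5b, Atp6v1g3, Dennd1b, Eif4e, Fndc3b, Foxk1, Igf1r, Nrip1, Ppm1h, Prr5l, Rap2b, Tcf4, Zeb2 and Zfhx3. Of their 42 regions 6 lay within 1 kb of a gene end and 23 inside the named gene. The nearest end can be far away. The regions of Zeb2 lay 6.87, 119 and 1326 kb from it, all outside the gene. Those of Rap2b lay up to 320 kb away, also outside. Each of the 14 also had resident regions, 2 to 14 by nearest end, beside 3 to 14 converted and 7 to 21 monocyte-derived ones.

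At Eif4e, the gene of the cap-binding translation factor, the 3 regions lay within 1.8 kb inside the gene (chromosome 3, 138526239 to 138526513, 138526864 to 138527038 and 138527939 to 138528038). Their converted p-values were 6.74e-06, 4.70e-06 and 4.70e-06. Their monocyte-derived p-values were at the floor in the first and second and 1.01e-05 in the third. At Igf1r, the insulin-like growth factor receptor gene, the 3 regions stood at the same gene end, all inside 1 kb of it (chromosome 7, 67951364 to 67951538, 67951639 to 67951913 and 67952239 to 67952338), 1 of them at the floor in the monocyte-derived list. Peaks so close may be pieces of 1 opening and share their source. At Prr5l, whose product associates with mTORC2, the 3 regions were spread over 29.4 kb inside the gene on chromosome 2, the strongest at 101781314 to 101781588 with a converted p of 2.24e-08 and a monocyte-derived p of 3.74e-06. At Nrip1, a nuclear receptor corepressor gene on chromosome 16, 2 of 3 regions lay inside the gene (76341789 to 76341963 and 76372189 to 76372338).

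Another converted-monocyte region lay within 50 kb of 247 regions (18.8%). The share of regions with one of their own class so near followed the size of the class, at 15.3% of the 570 converted-only and 78.9% of the 14557 monocyte-derived-only regions. No window of 50 kb held more than 3, and 10 separate windows held 3. Of these 10, equal in number, the first 5 in chromosome order were at Traf5 and Rcor3, Prr5l, Fnip2 and Ppid, Eif4e, and Rest and Noa1. At Rcor3, a corepressor gene, and Traf5, a signalling adaptor gene, 3 of the 4 regions in the window were converted-monocyte (chromosome 1, 192092939 to 192136738). At Rest, a repressor of neuronal genes, 3 of 5 were (chromosome 5, 77265739 to 77293088). The gene window with most converted-monocyte regions beside Prr5l, with 4 each, was that of Sfi1, where 166 regions of all kinds were crowded.

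Gene groups were described by counting genes with a converted-monocyte region in the gene body or within 10 kb. Over all protein-coding genes this was 6.29% (1361 of 21627), and over the 13727 genes with a region of any list it was 9.91%; 128 genes (0.592%) had 2 or more. The median gene had 0 such regions, in every list as over all genes. Of 22 lists, 1 had a 95% interval that lay above 9.91%. This was the list of identity factors of tissue macrophages outside the peritoneum, with 7 of 20 genes (35.0%, 18.1 to 56.7%). Its windows held 54 monocyte-derived regions missing from the resident list, of which 8 were converted (14.8%, 7.70 to 26.6%), an interval that includes the 8.27% of all such regions. At equal list lengths the list had 4 of 20 genes (8.07 to 41.6%), an interval that included the 10.3% of all genes under that setting. Against all genes, 6.29% in the main setting, it thus no longer stood above the background. Under the other settings in which list genes were counted, its interval lay above the share of all genes. The closest was p at most 1e-05 (18.1 to 56.7%, against 14.7%). The share over genes with a region of any list was not recounted under these settings.

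**Figure D5:**
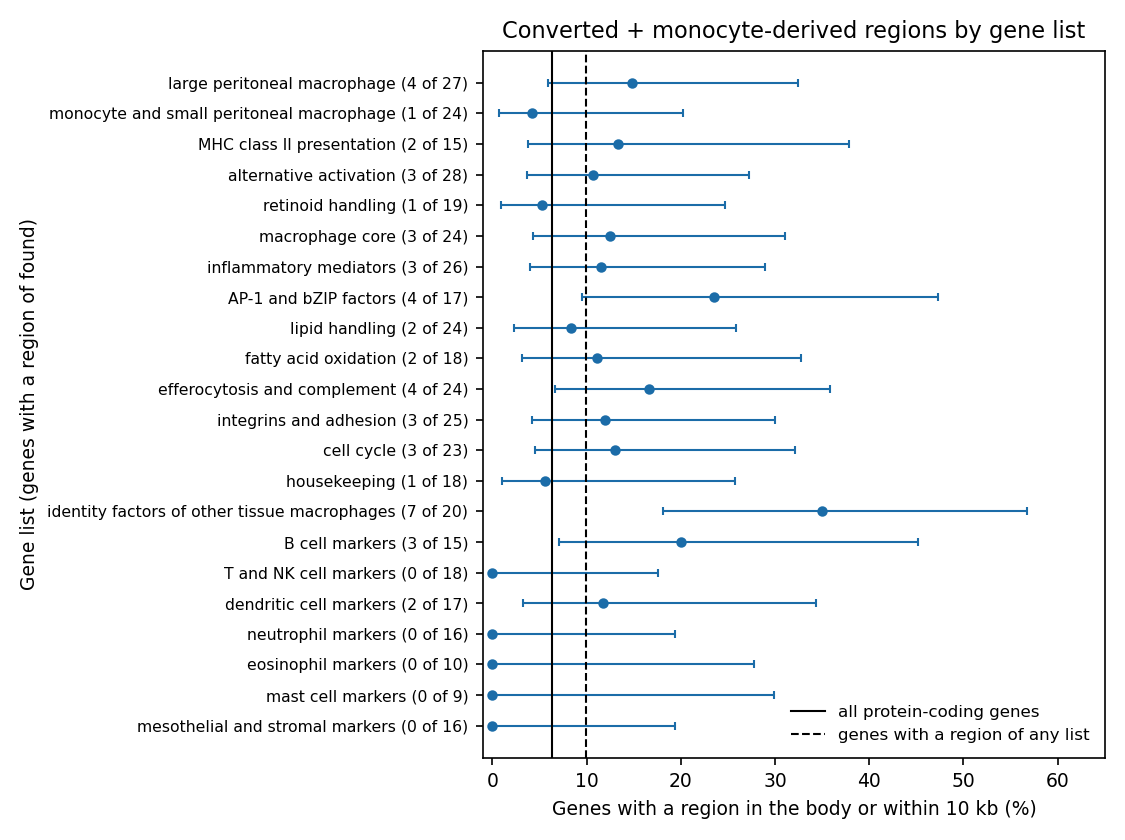
Share of the genes of each list (%, points, with 95% Wilson intervals) that have a converted-monocyte region in the gene body or within 10 kb; the solid line is the share over all protein-coding genes, 6.29%, and the dashed line that over genes with a region of any list, 9.91%. The list of identity factors of other tissue macrophages, at 35.0%, has an interval to the right of both lines; at equal list lengths it had 4 of 20 genes, with an interval that included the share of all genes, 10.3%.

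The 7 genes of that list were Meis1, Mef2c, Smad3, Zeb2, Bach2, Cebpb and Egr2. Beside the Meis1 region above, Mef2c, a MADS-box factor gene of microglia, had 1 region inside the gene (chromosome 13, 83524189 to 83524388), with p-values of 4.70e-06 in the converted and 1.52e-06 in the monocyte-derived list and a resident peak 350 bp away. Its window held 4 converted, 17 monocyte-derived and 8 resident regions. Smad3, the gene of a TGF-beta signal transducer, had 1 inside the gene (chromosome 9, 63674614 to 63674763), in a window of 3 converted, 6 monocyte-derived and 4 resident regions. Egr2, a zinc finger factor gene induced by IL-4, had 2, of which 1 lay inside the gene (chromosome 10, 67536064 to 67536213) and the other stood 9 bp from an end of its neighbour Ado. Its window held 4 converted, 6 monocyte-derived and 2 resident regions. Bach2, a transcriptional repressor gene, had 1 (chromosome 4, 32565014 to 32565163), with a converted p of 2.24e-08 and a monocyte-derived p of 1.01e-05.

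Cebpb, the C/EBP-beta gene, had 1 region 577 bp from a gene end (chromosome 2, 167688189 to 167688338), with p-values of 9.72e-06 in the converted and 4.87e-06 in the monocyte-derived list and a resident peak 350 bp away. Of 19 genes chosen for description in all lists, it was the one with a converted-monocyte region. The other 18 had none, among them Arg1, Mrc1, Retnla and Pparg of alternative activation, Gata6, Timd4 and Icam2 of resident cells, and Spi1 and Csf1r, which define macrophages. Of the 19, 14 had no converted region at all and so could hold none. Pparg had 0 converted, 2 monocyte-derived and 0 resident regions.

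AP-1 and related bZIP factor genes had a converted-monocyte region in 4 of 17 cases, with an interval of 9.56 to 47.3% that includes 9.91%. At Junb it lay 171 bp from a gene end (chromosome 8, 84976514 to 84976738), with p-values of 9.72e-06 in the converted and 7.44e-09 in the monocyte-derived list and a resident peak 125 bp away. Fosl2 had 1 region 1.28 kb from a gene end, Mafg 1 inside the gene, and Bach2 the one above. Efferocytosis and complement genes had 4 of 24, at C3ar1, Pros1, Itgav and Stab1, the last a scavenger receptor gene with 2 converted, 4 monocyte-derived and 1 resident region. Large peritoneal macrophage genes had 4 of 27. Klf2, a zinc finger factor gene, had a region 835 bp from its end (chromosome 8, 72322489 to 72322763), and Ltbp1 had 1 inside the gene, while those in the windows of Fcna and Serpinb2 lay nearer to the neighbours Tmem141 and Serpinb10.

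Inflammatory mediators had 3 of 26, and 0 of 26 at equal list lengths. Nfkbiz, an inducible regulator of NF-kappaB targets, had 2 regions at 1 gene end (chromosome 16, 55838589 to 55838763 and 55838839 to 55838963), the nearest resident peak being 16.0 kb from the first, and its window held 4 converted, 5 monocyte-derived and 2 resident regions. Cxcl2, a neutrophil chemoattractant gene, had 1 at 186 bp from its end (chromosome 5, 90903514 to 90903713), in a window of 1 converted, 6 monocyte-derived and 0 resident regions. The region in the window of Cxcl10 lay in Art3. Alternative activation genes had 3 of 28. Il4ra, the IL-4 receptor alpha gene, had 1 inside the gene (chromosome 7, 125555539 to 125555813), with a converted p of 9.72e-06 and a monocyte-derived p of 1.69e-06, beside Egr2 and Ppargc1b, a coactivator gene. Integrin and adhesion genes had 3 of 25. Icam1, an adhesion ligand gene, had 2 in its window, of which 1 lay 502 bp from its own end and 1 nearer to Icam4, and Itgb8 had 1 inside the gene.

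Macrophage core genes had 3 of 24, where Cd68, a lysosomal membrane protein gene, had a 400 bp region across its end (chromosome 11, 69666014 to 69666413) beside Cebpb and Zeb2. MHC class II genes had 2 of 15. The region near H2-Aa stood 3.87 kb outside the gene (chromosome 17, 34291689 to 34291838), and the 2 of H2-DMa also lay in Brd2. Cell cycle genes had 3 of 23, with the strongest 399 bp from an end of Ccne1, the cyclin E1 gene (chromosome 7, 38107889 to 38108113), a resident peak being 50 bp away. Lipid handling had 2 of 24 (Ppara, Scarb1), fatty acid oxidation 2 of 18 (Acadl, Ppargc1b), retinoid handling 1 of 19 (Aldh1a3), housekeeping 1 of 18, and monocyte and small peritoneal macrophage genes 1 of 24 (Vcan). The regions in the windows of Ppara, Aldh1a3 and Ccnb1 lay in the neighbouring genes Cdpf1, Lrrk1 and Cenph.

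Among markers of other cells, dendritic cell genes had 2 of 17 (Tcf4, and Zbtb46 by a region in its neighbour Tpd52l2) and B cell genes 3 of 15. Of the B cell genes, the region in the window of Cd79a lay 23 bp from Arhgef1 and that of Cr2 lay in Cr1l, and Bach2 was the third. T and NK cell genes had 0 of 18, neutrophil genes 0 of 16, mesothelial and stromal genes 0 of 16, eosinophil genes 0 of 10 and mast cell genes 0 of 9. With so few genes, a count of 0 allowed up to 17.6% for the T and NK list and 29.9% for the mast cell list (upper 95% Wilson bounds).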

How the data were processed

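Alignment used Bowtie2 2.2.9 and the mm10 (GRCm38) build, per the submitters' processing notes. How peaks were called was not given in the sources used here. Nor were duplicate removal, a read shift for the transposase or the merging of replicates, each of which can change the peaks in a list. The p-value of each peak is used as the authors deposited it, for ranks and filters within a list. Peaks of the 3 lists were merged at 1 bp of overlap (Python 3.11.15, pandas 2.3.3, numpy 2.4.6), a step checked on simulated regions. Gene bodies and promoter windows came from RefSeq GRCm38.p6, with 21627 protein-coding symbols and no promoter window on chromosome 18. Exons and introns were not used. With 1 merged list per group of 3 samples, no test between groups exists. Shares have Wilson and differences Newcombe 95% intervals, which cover counting error only.

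The 22 lists name 398 genes, of which 396 were found. Named were 19 fixed genes, the 15 regions with the smallest mean percentile over both lists, genes with 3 regions by nearest end, 5 windows of 50 kb and up to 4 genes of each list. Others, at the edge of the rule or behind small counts, were chosen after their values were seen. The regions and lists were chosen with earlier results of these data known. Some items are not reported here.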

Additional observations from a re-analysis of the deposited data

How the results depend on the processing

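The class depends on how far the lists reach, and no setting changed the resident list alone. With p at most 1e-05 in every list it held 3141 regions, of which 1862 were not among the 1312. At equal list lengths it held 2098, of which 1548 were not, and with p at most 1e-10 it held 540, of which 537 were not; with peaks within 200 bp merged it held 986, of which 20 were not, and 842 had no resident peak within 1 kb. Of the 1312, 415 were met by a region of the class under 50% overlap, 200 bp merging, p at most 1e-05 and equal lengths alike. Of these 415, 118 (28.4%, 24.3 to 33.0%) lay within 1 kb of a gene end.
The share near gene ends was 46.1% at p at most 1e-05, 69.3% at p at most 1e-10, 46.9% at equal lengths, 30.2% with 200 bp merging, 28.1% without resident peaks within 1 kb, and 45.8% when near meant within 2.5 kb. The share inside genes was 72.8% at p at most 1e-05, 85.4% at p at most 1e-10, 72.7% at equal lengths and 66.4% for converted peaks without merging. The share of monocyte-derived regions missing from resident that were converted was 7.77% with 50% overlap, 17.2% at p at most 1e-05, 15.5% at p at most 1e-10 and 27.0% at equal lengths. Of the listed genes, 41 had a region, against 68 at p at most 1e-05, 75 with 50 kb on each side and 26 without resident peaks within 1 kb. At equal list lengths, where 10.3% of all genes had a region, the identity factor list had 4 of 20 genes, with an interval that included this share, and the inflammatory list had 0 of 26. Of 154 list counts under alternatives, 49 moved by over 1.5 times. By construction, filters on p change which peaks can be missing; other causes were not tested. The settings without the Sfi1 locus and without resident peaks within 1 kb were chosen after seeing the data. No paired analysis was possible because the samples of a group were merged into 1 list, without replicate numbers, and leaving out a replicate was not possible either. Depth is unknown and limits every absence of a call.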

Other observations

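Converted-monocyte regions were on all 20 chromosomes of the lists. They were 4.74% of all regions on chromosome 9 (3.86 to 5.82%), the highest share, and 2.50% on chromosome X (1.59 to 3.92%), the lowest. Over all chromosomes the share was 3.56%. The 2 chromosomes were picked as the extremes of 20, so no excess can be read from their intervals. Within 1 kb of a RefSeq microRNA hairpin lay 7 of the 1312 regions, at 6 hairpins. The share over all regions was not counted, so no excess can be read from this. Of these, 2 were the regions at Eif4e beside Mir1956, both with a monocyte-derived p at the floor, and 1 lay inside Ppm1h, a phosphatase gene, 227 bp from Mir8104, with p-values of 2.24e-08 in the converted and 1.88e-06 in the monocyte-derived list. The others were beside Mir3092 in Fndc3b, Mir8102, Mir345 and Mir5136. The nearest other region of a converted-monocyte region was itself of this class in 69 cases (5.26%), of all 3 lists in 476 (36.3%) and monocyte-derived only in 468 (35.7%). Over all regions the same shares were 3.67%, 29.8% and 39.1%.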
